A study of Mus musculus with 12 samples.

Results

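The 6 genes described here, Myh14, Phyhd1, Tmem120a, Trps1, Itm2a and Slc39a10, were chosen by the smallest p between genotype labels in mature adipocytes of mouse inguinal fat, and fill 6 of the first 12 places in that order. They are 6 of 16670 genes in the deposited table, and all 6 were found there by symbol. RNA sequencing was done on the subcutaneous inguinal white fat of female C57BL/6 mice. Each library came from the fat of 2 pooled mice, which was digested with collagenase and spun into floating mature adipocytes and a pellet of stromal vascular cells, which include adipocyte progenitors, vessel cells and leukocytes. The 4 groups of 3 libraries were mature adipocytes labelled Kdm5c+/-, mature adipocytes labelled Kdm5c+/+ (wild type), stromal vascular cells labelled Kdm5c+/- and stromal vascular cells labelled Kdm5c+/+. Kdm5c is an X-linked gene for a demethylase of histone H3 lysine 4. The labels state neither the age of the mice nor how the Kdm5c allele was made.

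The 6 genes have unlike roles. Myh14 encodes the heavy chain of non-muscle myosin II-C, a motor that pulls on actin filaments. Phyhd1 encodes a dioxygenase related to phytanoyl-CoA hydroxylase, the peroxisomal enzyme that begins the breakdown of branched fatty acids. Tmem120a encodes a membrane protein of the nuclear envelope that is abundant in fat cells and has been studied for a role in fat cell differentiation. Trps1 encodes a transcriptional repressor with a zinc finger of the GATA type. Itm2a encodes a small membrane protein with a BRICHOS domain, described in cartilage, muscle and T cells. Slc39a10 encodes ZIP10, which carries zinc into the cytosol.

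Depth was 21836878 to 29434125 reads per library. A level in CPM is the gene's reads per 1000000 reads of its library, so that 3 reads equalled 0.102 to 0.137 CPM. Kdm5c itself stood at 158 to 190.3 CPM in mature adipocyte libraries labelled Kdm5c+/-, against 174 to 180.0 CPM in wild type. In the stromal vascular fraction it stood at 175 to 194 CPM in libraries labelled Kdm5c+/-, against 180.1 to 188 CPM in wild type. Its level over the whole gene therefore did not set the labels apart, and every direction between genotypes given here rests on the labels alone. Defining markers followed the fraction labels, with the fat cell gene Adipoq at 3993 to 4602 CPM in mature adipocytes against 45.4 to 168.5 CPM in stromal vascular cells, and the endothelial gene Pecam1 at 17.1 to 58.1 CPM in mature adipocytes against 1085 to 1588 CPM in stromal vascular cells. Replicates were numbered pools, and p-values measure the spread between these pools.

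The sequence before the start site was read for the members present in the RefSeq promoter table of GRCm38.p6. It held 5 of the 6 genes with 8 windows of 250 bases before to 50 bases after a start, and Trps1 was not among them. These 3 windows are shown because Tmem120a and Phyhd1, which stood higher in the same mature adipocyte libraries, had unlike promoters, and because Itm2a held most of the motif matches. Each is the 250 bases before the start, 5′ to 3′. Capitals mark CpG dinucleotides in Tmem120a (chr5:135744173-135744422, minus strand) and Phyhd1 (chr2:30265953-30266202, plus strand). Capitals mark motif matches in Itm2a (chrX:107403361-107403610, minus strand).
Tmem120a: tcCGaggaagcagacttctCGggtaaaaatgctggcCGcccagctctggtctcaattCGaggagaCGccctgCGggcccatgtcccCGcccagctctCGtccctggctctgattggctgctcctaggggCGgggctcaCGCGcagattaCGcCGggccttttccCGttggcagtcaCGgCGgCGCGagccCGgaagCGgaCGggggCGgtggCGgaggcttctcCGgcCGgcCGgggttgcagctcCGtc
Phyhd1: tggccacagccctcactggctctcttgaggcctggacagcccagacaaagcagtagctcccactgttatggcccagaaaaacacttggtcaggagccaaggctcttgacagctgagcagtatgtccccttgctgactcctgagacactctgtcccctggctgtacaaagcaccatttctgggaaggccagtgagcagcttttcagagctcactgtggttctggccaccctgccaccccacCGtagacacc
Itm2a: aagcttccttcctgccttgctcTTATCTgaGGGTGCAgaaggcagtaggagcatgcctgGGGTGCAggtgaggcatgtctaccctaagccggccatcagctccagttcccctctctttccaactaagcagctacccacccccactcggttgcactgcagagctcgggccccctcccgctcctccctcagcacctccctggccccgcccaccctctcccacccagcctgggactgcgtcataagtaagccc
Over the whole window, Tmem120a had 32 CpG dinucleotides and a ratio of observed to expected CpG of 0.896, above 87.0% of the 32851 windows in the table. Phyhd1 had 1 CpG dinucleotide and a ratio of 0.0437 in this window, above 5.60% of windows, and its 2 other starts had ratios of 0.0939 and 0. The median window had a ratio of 0.384. Myh14 had 0.576 and Itm2a 0.253, and the 2 starts of Slc39a10 had 0.0894 and 1.20.

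Exact matches on both strands were counted for 6 motifs, and no 2 matches overlapped. The E-box CACGTG (7.15% of all windows), the D-box TTATGTAA (0.938%), the PPAR site, a pair of AGGTCA in tandem with 1 base between them (0.0396%), and the cyclic AMP element TGACGTCA (1.79%) had 0 matches in the 8 windows. The GATA motif AGATAA (11.2% of all windows) was in the Itm2a window, beginning at position -228 from the start, and in 1 of the Slc39a10 windows, beginning at position -111. That Slc39a10 window, chr1:46925727-46926026 with the CpG ratio of 0.0894, lies outside the GENCODE gene, which ends at 46892852. The other, chr1:46853569-46853868, lies inside that gene and had no match to any of the motifs. The metal response motif, written as TGCGCNC or TGCACNC (25.7% of all windows), matched in Itm2a at positions -220 and -191. These are matches of letters, not binding sites.

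In mature adipocytes Myh14, Phyhd1 and Tmem120a were higher, and Trps1, Itm2a and Slc39a10 lower, in libraries labelled Kdm5c+/- than in wild type. These libraries chose the genes, so their values are a description with no test. In bulk samples such as these, fewer cells of a type and less RNA per cell cannot be told apart. Among the 12 genes with the smallest p, the members held ranks 3, 4, 8, 9, 10 and 12, and the other 6 are not described here. Slc39a10, the last of the members, had an unadjusted p of 0.00041, and Lrg1, the next gene after it, had 0.000424. The genotype labels did not overlap for any of the 6 members, with 3 genes entirely above and 3 entirely below wild type. That arrangement held for 9.44% of all 11913 genes with the label Kdm5c+/- higher and 12.6% with it lower, and it follows from the choice. By limma 0 genes (0%) passed an adjusted p of 0.05, and 1737 (14.6%) passed 0.05 before adjustment. The edgeR test called 0 and DESeq2 250.

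Myh14, the myosin heavy chain, stood at 43.6, 33.6 and 32.3 CPM in mature adipocyte libraries labelled Kdm5c+/-, against 18.6, 17.6 and 20.2 CPM in wild type. The groups did not overlap, and replicate 1 of the label Kdm5c+/- was the highest library. The means gave a ratio of 1.94, and the log2 difference was 0.91. Phyhd1 stood at 71.3, 66.5 and 59.7 CPM in libraries labelled Kdm5c+/-, against 40.5, 40.7 and 45.4 CPM in wild type. Its lowest library labelled Kdm5c+/- was above the highest wild-type library, and the ratio of means was 1.56. Tmem120a, the nuclear envelope gene, stood at 313, 322 and 293 CPM in libraries labelled Kdm5c+/-, against 217, 204 and 214 CPM in wild type. Libraries within a label lay close together for this gene, and the ratio of means was 1.46.

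Trps1, the GATA-type repressor, stood at 65.5, 67.5 and 74.7 CPM in libraries labelled Kdm5c+/-, against 101, 107 and 113 CPM in wild type. All wild-type libraries were above all libraries labelled Kdm5c+/-, and the ratio of means was 0.646. Itm2a, the BRICHOS membrane protein, stood at 3.16, 3.64 and 3.64 CPM in libraries labelled Kdm5c+/-, against 8.39, 10.9 and 7.15 CPM in wild type. Its level rested on 86 to 320 reads per library, and wild-type replicate 2 was the highest. The ratio of means was 0.395, and the log2 difference of -1.11 was the furthest from 0 of the 6 genes. Slc39a10 stood at 19.7, 21.1 and 19.6 CPM in libraries labelled Kdm5c+/-, against 32.7, 27.7 and 30.1 CPM in wild type. The ratio of means was 0.667, and the groups lay apart.

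**Figure D1:**
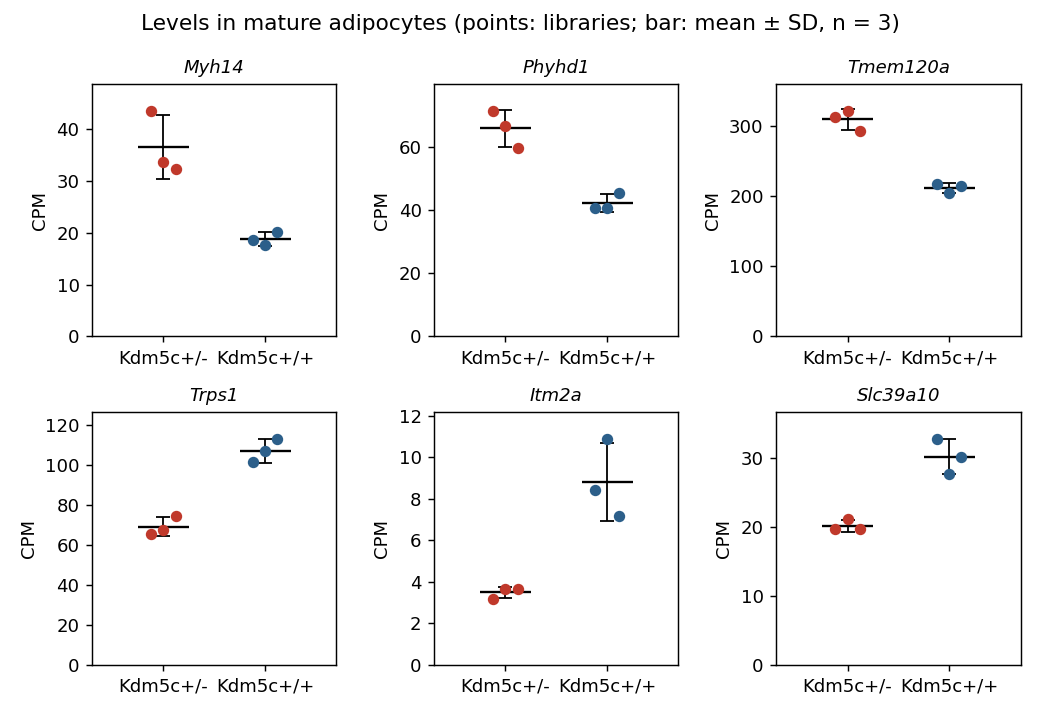
Levels of the 6 genes in mature adipocytes, in CPM on the vertical axis, by genotype label. Points are libraries, and bars are the mean and SD of 3. Myh14, Phyhd1 and Tmem120a lay higher in all libraries labelled Kdm5c+/-, and Trps1, Itm2a and Slc39a10 lay lower, in the libraries that chose the genes.

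The stromal vascular libraries had no part in the choice, and in them no member passed the test between genotype labels. With limma on log2(CPM + 1) and Benjamini-Hochberg adjustment over 13792 genes, 0 of 6 members were called, where 0.00725% of all genes were called. At an unadjusted p under 0.05, 1 of 6 members passed, Phyhd1, against 7.56% of all genes, and with edgeR and DESeq2 no member had an adjusted p under 0.05. Libraries are again given for each gene.

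Phyhd1 was the member whose stromal vascular groups did not overlap. It stood at 14.2, 18.8 and 12.5 CPM in libraries labelled Kdm5c+/-, against 11.1, 9.34 and 11.0 CPM in wild type. All 3 libraries labelled Kdm5c+/- were higher, an arrangement that 3.74% of all genes showed in this direction and 9.74% in the other. The log2 difference was 0.48 ± 0.16 (SE, 95% interval 0.12 to 0.84, n = 3 each), with an unadjusted p of 0.0165 and an adjusted p of 0.617 in limma. The difference thus did not pass. In these stromal vascular libraries 13 of 15 mature adipocyte markers also had a positive difference, where 40.6% of all genes did. Their median was 0.47 against -0.03 over all genes, and 0 of these markers passed. The summed level of those markers was 9167, 10649 and 6473 CPM in libraries labelled Kdm5c+/-, against 6586, 7200 and 7078 CPM in wild type, and none was at 0. Replicates 1 and 2 of the label Kdm5c+/- were highest in both Phyhd1 and the marker sum, while replicate 3 was above all wild-type libraries in Phyhd1 and below them in the sum. Adipoq came to 45.4 to 168.5 CPM of these sums and Plin1 to 29.5 to 99.9 CPM, so other genes of the list made up most of them. The order of the sum need not be that of each marker. The part of fat cell transcripts in the result was not tested.

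Tmem120a stood at 26.3, 23.4 and 20.2 CPM in stromal vascular libraries labelled Kdm5c+/-, against 19.9, 17.9 and 20.5 CPM in wild type. The groups overlapped by 1 library of each label. The log2 difference was 0.24 ± 0.11 (SE, 95% interval -0.02 to 0.51), with an adjusted p of 0.656 in limma. The same sums of mature adipocyte markers stand beside this gene, and the part of fat cell transcripts was not tested. Slc39a10 stood at 109, 76.6 and 87.1 CPM in libraries labelled Kdm5c+/-, against 107, 95.9 and 113 CPM in wild type. Replicates 2 and 3 of the label Kdm5c+/- were the lowest libraries, and the groups overlapped. Its log2 difference of -0.22 ± 0.14 (SE, 95% interval -0.54 to 0.09) did not pass, with an adjusted p of 0.699 in limma. Without replicate 1 of the label Kdm5c+/- the difference was -0.36, and without replicate 2 it was -0.11, and neither passed.

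Myh14 had the widest spread of the members in the stromal vascular fraction on the log2 scale. It stood at 13.3, 25.5 and 5.92 CPM in libraries labelled Kdm5c+/-, against 11.7, 9.43 and 17.8 CPM in wild type. The libraries labelled Kdm5c+/- held both the highest and the lowest level. The log2 difference was 0.02 ± 0.49 (SE, 95% interval -1.15 to 1.20, adjusted p = 0.992 in limma), and the interval is too wide to set it apart from 0 or from the 0.91 of mature adipocytes. Its 6 libraries had the same order as the summed level of 13 mammary epithelium markers, the glandular cells of this depot. In that order the sums were 185, 251, 298, 325, 483 and 647 CPM. Beside them Myh14 was 5.92, 9.43, 11.7, 13.3, 17.8 and 25.5 CPM, the first, the fourth and the last of these being libraries labelled Kdm5c+/-. Of 42 pairs of a member and a marker list, this was the 1 with all 6 libraries at the same rank, and it was singled out after its values were seen. The other pair with at least 4 libraries at the same rank was Trps1 with the same list. In mature adipocytes the epithelial gene Epcam rested on 2 to 4 reads and 0.0783 to 0.155 CPM per library, against 9.08 to 29.8 CPM in the stromal vascular fraction. Myh14 there was at 17.6 to 43.6 CPM. In mature adipocytes the list summed to 123 to 203 CPM in libraries labelled Kdm5c+/-, against 135 to 171 CPM in wild type, with Krt14 at 0 in all libraries labelled Kdm5c+/- and Elf5 at 0 in all wild-type libraries. Of the 13 markers, 3 reached the level for testing there, and 2 were called higher in mature adipocytes than in the stromal vascular fraction. The median marker came to 0.784% of its stromal vascular level in libraries labelled Kdm5c+/- and 0.907% in wild type. The sum thus does not stand for most of the markers. The part of epithelial cells in the levels of Myh14 and Trps1 was not tested.

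Trps1 and Itm2a had differences close to 0 in the stromal vascular fraction. Trps1 stood at 27.3, 36.7 and 20.7 CPM in libraries labelled Kdm5c+/-, against 28.4, 26.4 and 30.6 CPM in wild type. Both extremes carried the label Kdm5c+/-, and the log2 difference was -0.05 ± 0.19 (SE, 95% interval -0.50 to 0.41, adjusted p = 0.967 in limma). Itm2a stood at 82.8, 76.4 and 78.7 CPM in libraries labelled Kdm5c+/-, against 61.9, 70.7 and 99.6 CPM in wild type. The wild-type libraries lay on both sides of the others, and the log2 difference was 0.06 ± 0.16 (SE, 95% interval -0.33 to 0.45, adjusted p = 0.947 in limma). The estimates in mature adipocytes, -0.62 for Trps1 and -1.11 for Itm2a, lay outside these intervals, as did 0.55 for Tmem120a and -0.56 for Slc39a10. Those of Myh14 and Phyhd1 lay inside. Whether the fractions differ was not tested, since the mature adipocyte difference chose the genes, and a choice by the smallest p favours large estimates.

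**Figure D2:**
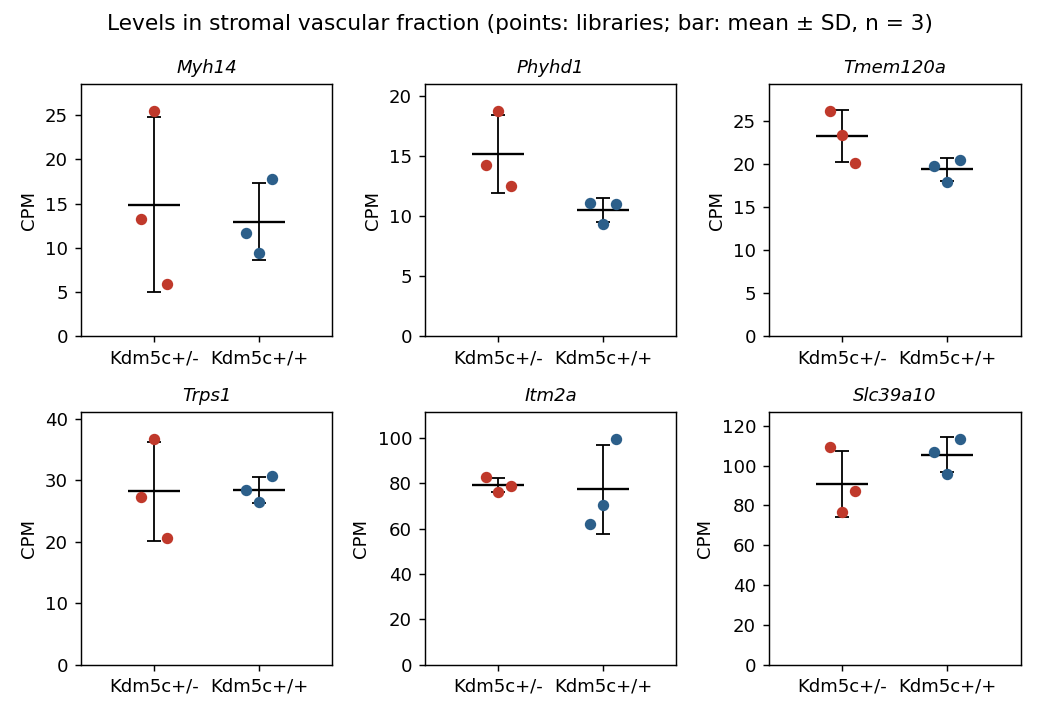
Levels of the 6 genes in the stromal vascular fraction, in CPM on the vertical axis, by genotype label, with points for libraries and bars for the mean and SD of 3. Only for Phyhd1 did the libraries of the labels not overlap, at 12.5 to 18.8 CPM for Kdm5c+/- and 9.34 to 11.1 CPM for wild type.

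**Figure D3:**
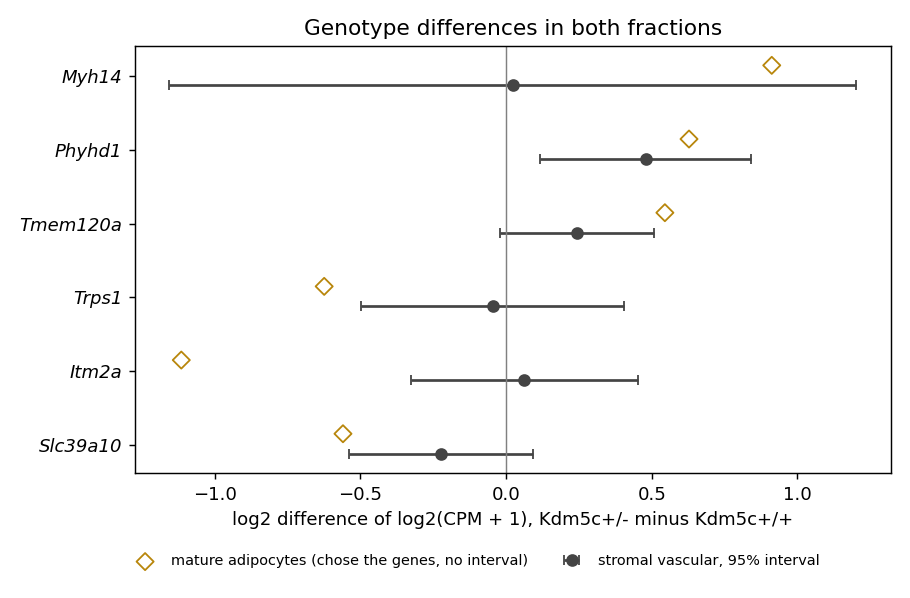
Log2 differences between libraries labelled Kdm5c+/- and Kdm5c+/+ on the horizontal axis, for each gene. Filled points with 95% intervals are the stromal vascular fraction and open diamonds the mature adipocytes that chose the genes, shown with no interval. The interval of Phyhd1, 0.12 to 0.84, is the 1 that leaves out 0.

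The members also fell on both sides of the difference between fractions, with 4 higher in mature adipocytes and 2 lower. With limma over 14193 genes and both genotypes weighted equally, all 6 passed, where 87.8% of all genes passed, 28.7% as higher in mature adipocytes and 59.1% as lower. The choice of the members also favoured genes with little spread among mature adipocyte libraries, which enters the error of this comparison. The median of all genes was -0.45 in this comparison, and -0.09, 0.11, -0.0075 and -0.09 with median-of-ratios scaling, quantile normalization, edgeR and DESeq2. The share of calls that were higher in mature adipocytes, 32.7%, then became 46.6%, 54.6%, 49.7% and 46.9%. Each member kept its direction and its call under all of these.

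Tmem120a had a mean of 260 ± 54.5 CPM in mature adipocytes, against 21.4 ± 2.97 CPM in stromal vascular cells (SD, n = 6 each). That is a log2 difference of 3.53 ± 0.07 (SE, adjusted p = 1.86e-12 in limma), the largest positive difference among the members. Its groups ran from 309 ± 14.7 CPM in mature adipocytes labelled Kdm5c+/- through 211 ± 6.88 CPM in wild-type mature adipocytes to stromal vascular cells at 23.3 ± 3.02 CPM for the label Kdm5c+/- and 19.4 ± 1.36 CPM for wild type, which overlapped (SD, n = 3 each). Phyhd1 averaged 54.0 ± 13.6 CPM in mature adipocytes, against 12.8 ± 3.34 CPM in stromal vascular cells, with a log2 difference of 1.99 ± 0.09 (adjusted p = 1.14e-09 in limma). Its 4 groups did not overlap with their neighbours, with means of 65.8 CPM in mature adipocytes labelled Kdm5c+/-, 42.2 CPM in wild-type mature adipocytes, 15.2 CPM in stromal vascular cells labelled Kdm5c+/- and 10.5 CPM in wild-type stromal vascular cells. Trps1 averaged 88.2 ± 21.3 CPM in mature adipocytes, against 28.3 ± 5.28 CPM in stromal vascular cells, with a log2 difference of 1.59 ± 0.11 (adjusted p = 5.28e-08 in limma). Its wild-type mature adipocytes were highest, and the 2 stromal vascular groups, at 28.2 ± 8.07 CPM for the label Kdm5c+/- and 28.5 ± 2.12 CPM for wild type, differed by less than their spread.

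Myh14 averaged 27.7 ± 10.5 CPM in mature adipocytes, against 13.9 ± 6.92 CPM in stromal vascular cells, a log2 difference of 0.99 ± 0.27 (SE, adjusted p = 0.00493 in limma). Libraries overlapped between the fractions, since wild-type mature adipocytes at 17.6 to 20.2 CPM met stromal vascular libraries at 5.92 to 25.5 CPM. In wild-type libraries alone the difference was 0.54 and still passed (adjusted p = 0.0379), and with quantile normalization of all libraries it was 1.60. Itm2a averaged 6.14 ± 3.16 CPM in mature adipocytes, against 78.3 ± 12.7 CPM in stromal vascular cells, a log2 difference of -3.58 ± 0.12 (adjusted p = 6.63e-11 in limma). Slc39a10 averaged 25.2 ± 5.76 CPM in mature adipocytes, against 98.2 ± 14.3 CPM in stromal vascular cells, a log2 difference of -1.94 ± 0.08 (adjusted p = 5.70e-10 in limma). For both genes every mature adipocyte library lay below every stromal vascular library, as for 51.4% of all genes. Phyhd1, Tmem120a and Trps1 lay above them in every library, as did 23.2% of all genes.

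The genes that were lower in mature adipocytes still kept a larger share of their stromal vascular level than the median marker of any stromal cell type. Itm2a in mature adipocytes came to 4.39% of its stromal vascular level in libraries labelled Kdm5c+/-, against 11.4% in wild type. Slc39a10 came to 22.1% in libraries labelled Kdm5c+/-, against 28.6% in wild type. In libraries labelled Kdm5c+/- the median endothelial marker came to 2.69%, the pericyte and smooth muscle marker to 2.58%, the progenitor marker to 1.13%, the macrophage marker to 1.29% and the lymphocyte marker to 1.06%. In wild type the same medians were 3.71%, 3.56%, 1.35%, 2.78% and 1.62%. Itm2a was nearer to these medians than Slc39a10 was in both genotypes.

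Markers of those cells stood lower alongside Itm2a and Slc39a10 in mature adipocyte libraries labelled Kdm5c+/-. All 12 of 12 endothelial markers had a negative difference there, where 43.1% of all genes were above 0. Their median was -0.75 against -0.03 over all genes, and 0 passed in limma. DESeq2 called 2 of them and 3 pericyte and smooth muscle markers as lower, and 4 mature adipocyte markers as higher. Over all 11913 genes it called 250, with 125 higher and 125 lower. The summed level of the endothelial markers was 135 to 254 CPM in libraries labelled Kdm5c+/-, against 306 to 381 CPM in wild type, with 0 markers at 0. Progenitor and fibroblast markers were negative in 13 of 13 (median -0.50), with sums of 1339 to 2707 CPM in libraries labelled Kdm5c+/-, against 2340 to 2922 CPM in wild type. Pericyte and smooth muscle markers were negative in 9 of 10 tested (median -0.93), with sums of 1015 to 1108 CPM in libraries labelled Kdm5c+/-, against 1022 to 1460 CPM in wild type. Of 11 such markers tested between fractions, 2 were above 0 and 1 was called higher in mature adipocytes, so this sum does not stand for each marker. Macrophage markers were negative in 10 of 10 tested (median -0.44), and in 8 or 9 with the other scalings, with sums of 63.7 to 92.9 CPM in libraries labelled Kdm5c+/-, against 71.0 to 157 CPM in wild type. Lymphocyte markers summed to 3.36 to 4.33 CPM in libraries labelled Kdm5c+/-, against 2.36 to 10.4 CPM in wild type. The part of these cells in the levels of Itm2a and Slc39a10 was not tested. Mature adipocyte markers were positive in 11 of 15 (median 0.21), and in 9 to 12 with the other scalings. Their sums were 62996 to 71885 CPM in libraries labelled Kdm5c+/-, against 57184 to 58521 CPM in wild type. The part of these markers in the levels of Myh14, Phyhd1 and Tmem120a was not tested either.

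**Figure D4:**
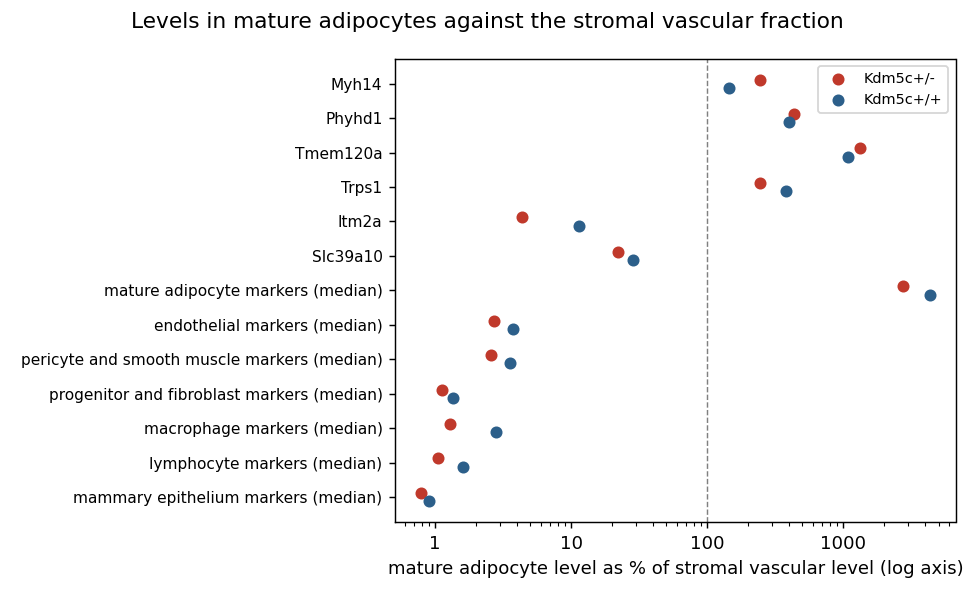
Level in mature adipocytes as a percentage of the stromal vascular level, on a log axis, from group means of 3 libraries, for each member and for the median gene of each marker list. Itm2a lies at 4.39% in libraries labelled Kdm5c+/- and 11.4% in wild type, between the marker lists of stromal cells and the other members.

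**Figure D5:**
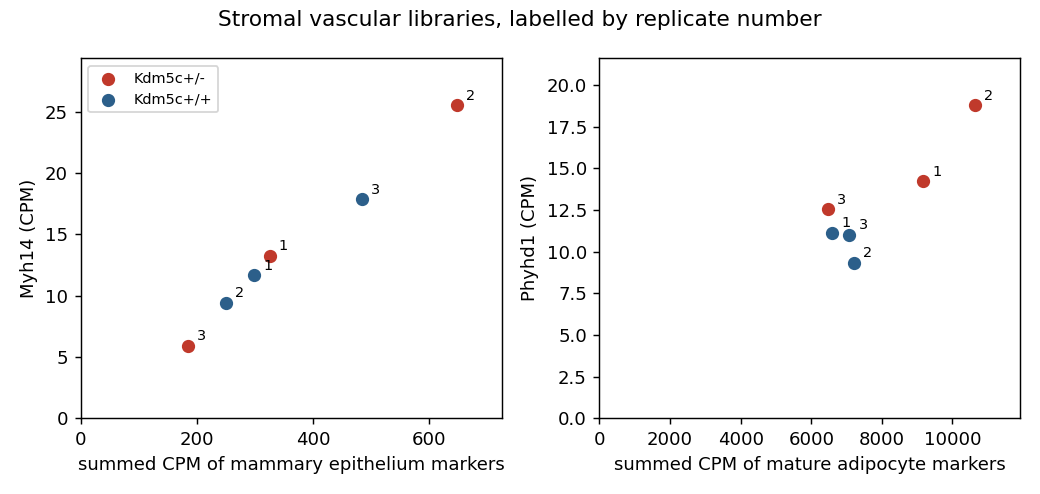
Stromal vascular libraries, labelled by replicate number. On the left the level of Myh14 stands against the summed CPM of 13 mammary epithelium markers, and on the right that of Phyhd1 against the sum of 15 mature adipocyte markers. Myh14 runs from 5.92 to 25.5 CPM in the order of its marker sum. Phyhd1 does not keep the order of its own sum, to which Adipoq gave 45.4 to 168.5 CPM.

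Relatives of the members were followed in 6 lists. None of 62 tested in the stromal vascular fraction, and none of 59 tested in mature adipocytes, passed between genotype labels in limma. Levels between genes are compared in CPM per kilobase of exonic sequence. Among the non-muscle myosins, Myh14 came to 5.02 ± 0.851 CPM per kilobase in mature adipocytes labelled Kdm5c+/- and 2.58 ± 0.180 in wild type (SD, n = 3 each). Myh9, the heavy chain of myosin II-A, came to 14.1 ± 0.633 in libraries labelled Kdm5c+/- and 17.4 ± 2.02 in wild type. Myh10, that of II-B, came to 8.79 ± 2.89 in libraries labelled Kdm5c+/- and 9.72 ± 0.989 in wild type. Myh14 was thus the least abundant of the 3 in both genotypes. In contrast to Myh14, Myh9 was lower in mature adipocytes than in the stromal vascular fraction, with a log2 difference of -3.25, as was Myh10 with -0.82. All 12 listed myosin genes and regulators were below 0 there, and 10 passed as lower, where 59.1% of all genes did. Among them Myl9, a regulatory light chain of smooth muscle, was at -4.44. With the other scalings 8 to 10 passed as lower and up to 1 as higher. Between labels in the stromal vascular fraction, 3 of 12 were above 0 (median -0.10), where 40.6% of all genes were, and 4 or 5 with the other scalings. Ppp1r12a, a subunit of myosin phosphatase, was at -0.20 and Myl12b at -0.13.

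Phyh, the hydroxylase that Phyhd1 resembles, came to 118 ± 6.11 CPM per kilobase in mature adipocytes labelled Kdm5c+/- and 120 ± 6.58 in wild type. Phyhd1 came to 24.8 ± 2.21 in libraries labelled Kdm5c+/- and 15.9 ± 1.04 in wild type. The log2 difference of Phyh between labels was -0.02 in mature adipocytes, against 0.26 for stromal vascular cells (adjusted p = 0.798 in limma for these). Of 10 genes of phytanoyl-CoA and peroxisomal alpha-oxidation, 6 were tested. In mature adipocytes 5 of these were higher than in the stromal vascular fraction and 1 lower, where 28.7% and 59.1% of all genes were. Scp2, a carrier and thiolase of peroxisomes, had a log2 difference of 2.92, Phyh 2.55 and Amacr, a racemase of branched acids, 0.89. Between labels, 4 of 6 were above 0 in mature adipocytes (median 0.13) and 3 of 6 in the stromal vascular fraction (median 0.01). Of all genes, 43.1% and 40.6% were. With the other scalings 4 or 5 were above 0 in each fraction.

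Tmem120b, the paralog of Tmem120a, was likewise higher in mature adipocytes. It came to 60.8 ± 5.13 CPM per kilobase in mature adipocytes labelled Kdm5c+/- and 59.1 ± 17.6 in wild type, while Tmem120a came to 179 ± 8.49 in libraries labelled Kdm5c+/- and 122 ± 3.98 in wild type. The difference of Tmem120b between fractions was 3.37 on the log2 scale, close to the 3.53 of Tmem120a. Between labels it was 0.08 ± 0.21 in mature adipocytes, against 0.07 ± 0.17 for stromal vascular cells (adjusted p = 0.938 in limma for these). Of 15 nuclear envelope genes, 4 were higher in mature adipocytes than in the stromal vascular fraction and 11 lower, where 28.7% and 59.1% of all genes were. The lamin B receptor Lbr was at -4.02. With the other scalings 4 or 5 passed as higher and 8 or 9 as lower. Between labels in the stromal vascular fraction 5 of 15 were above 0 (median -0.05), where 40.6% of all genes were, and 6 with each of the other scalings. Tmem201 was at -0.19 and Sun1, which ties the envelope to the cytoskeleton, at -0.11.

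Of 7 GATA factors and partners tested between fractions, 5 were lower in mature adipocytes and 2 higher, where 59.1% and 28.7% of all genes were, with Gata2 at -4.72 and Gata3 at -4.04, both described as brakes on fat cell differentiation. Gata6 and Zeb2 were higher in mature adipocytes, as Trps1 was. Between labels, 6 of 6 tested were below 0 in mature adipocytes (median -0.49) and 7 of 7 in the stromal vascular fraction (median -0.23), where 43.1% and 40.6% of all genes were above 0. Gata2 had a difference of -0.36 ± 0.08 in the stromal vascular fraction (adjusted p = 0.617 in limma) and Zfpm1, a cofactor of GATA factors, -0.45 ± 0.14. In mature adipocytes Gata2 was at 1.77 CPM in libraries labelled Kdm5c+/-, against a wild-type mean of 3.40 CPM, a difference of -0.67. With quantile normalization 1 of the 6 was above 0 in mature adipocytes.

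The BRICHOS relatives of Itm2a were far more abundant than it in mature adipocytes. Itm2b came to 438 ± 46.4 CPM per kilobase in libraries labelled Kdm5c+/- and 438 ± 10.6 in wild type, and Itm2c to 23.4 ± 3.59 in libraries labelled Kdm5c+/- and 26.7 ± 2.42 in wild type. Itm2a came to 2.00 ± 0.161 in libraries labelled Kdm5c+/- and 5.05 ± 1.09 in wild type. Neither relative passed between labels, with -0.0065 for Itm2b and -0.20 for Itm2c in mature adipocytes. Between fractions Itm2c was at -1.33 and Itm2b at -0.47, and the call of Itm2b was lost with median-of-ratios scaling, edgeR and DESeq2, and its sign turned with edgeR.

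Among zinc transporters, Slc39a10 came to 3.30 ± 0.137 CPM per kilobase in mature adipocytes labelled Kdm5c+/- and 4.95 ± 0.414 in wild type. Slc39a6, its nearest relative, came to 3.08 ± 0.202 in libraries labelled Kdm5c+/- and 3.50 ± 0.334 in wild type. Slc39a14 came to 0.808 ± 0.0372 in libraries labelled Kdm5c+/- and 0.774 ± 0.0976 in wild type. The difference of Slc39a6 between labels was -0.17 in mature adipocytes, against -0.0046 for stromal vascular cells. That of Slc39a14 was 0.06 in mature adipocytes, against 0.05 for stromal vascular cells. Of 20 zinc transporters and metallothioneins tested between fractions, 4 were higher in mature adipocytes and 13 lower, where 28.7% and 59.1% of all genes were. That balance went to 9 higher and 8 lower with edgeR. Slc39a8 was at -2.72 there and the metallothionein Mt2 at 2.64. Between labels in the stromal vascular fraction 15 of 20 were above 0 (median 0.04), where 40.6% of all genes were, and 18 with each of the other scalings. The 2 with the smallest p, Slc39a8 at -0.74 ± 0.19 (adjusted p = 0.617 in limma) and Slc30a4 at -0.18 ± 0.09, were below 0. In mature adipocytes 5 of 18 were above 0, where 43.1% of all genes were, and 9 with each of the other scalings.

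For each member the 2 genes with the most similar course over the 12 libraries were sought. The measure was the mean absolute difference of log2(CPM + 1) after each fraction was centred on its own mean, so it includes the genotype difference that chose the members and is a description. Tmem120a was followed most closely by Oxld1 (0.07) and by Ap3s1, a subunit of an adaptor complex of vesicle transport (0.08), where the median gene was at 0.25. Oxld1 stood at 13.9, 13.5 and 11.8 CPM in mature adipocytes labelled Kdm5c+/-, against 9.55, 8.94 and 9.19 CPM in wild type. Phyhd1 was followed by Eif4ebp1, a repressor of translation (0.09), and Retsat, retinol saturase (0.10). Eif4ebp1 stood at 389, 374 and 333 CPM in libraries labelled Kdm5c+/-, against 224, 255 and 272 CPM in wild type.

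Myh14 was followed by Rassf6 (0.19) and Tmem56 (0.23), where the median gene was at 0.50. Tmem56 had its course mainly in the stromal vascular fraction, at 24.8, 54.4 and 13.4 CPM in libraries labelled Kdm5c+/-, against 31.4, 18.9 and 34.1 CPM in wild type. There it was highest and lowest in the same libraries as Myh14. Trps1 was followed by Ahr, the aryl hydrocarbon receptor (0.10), and Lrrc8c, a subunit of volume-regulated anion channels (0.11). In mature adipocytes Ahr stood at 2.16, 2.12 and 2.59 CPM in libraries labelled Kdm5c+/-, against 3.72, 4.82 and 3.63 CPM in wild type. Its stromal vascular means were 67.5 CPM for the label Kdm5c+/- and 78.0 CPM for wild type. Those of Lrrc8c were 94.3 and 99.5 CPM in the same order, against 1.80 and 3.39 CPM in mature adipocytes. Unlike Trps1, both were thus far lower in mature adipocytes, a difference that the centred measure leaves out. Itm2a was followed by Igsf10 (0.14) and Tfpi, an inhibitor of coagulation (0.18). Igsf10 stood at 10.6, 14.5 and 15.9 CPM in mature adipocytes labelled Kdm5c+/-, against 27.2, 28.3 and 24.1 CPM in wild type. Slc39a10 was followed by Pspc1, a protein of nuclear paraspeckles (0.09), and Klhl25 (0.09).

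The members lie on 6 chromosomes in GRCm38, by GENCODE mouse release 21. Myh14 is on the minus strand of chromosome 7 from 44605803 to 44670843, Phyhd1 on the plus strand of chromosome 2 from 30266203 to 30282149, and Tmem120a on the minus strand of chromosome 5 from 135735485 to 135744448. Trps1 is on the minus strand of chromosome 15 from 50654752 to 50890463, and Slc39a10 on the minus strand of chromosome 1 from 46807544 to 46892852. Itm2a, on the minus strand of chromosome X from 107397099 to 107403376, is the member on the chromosome of Kdm5c. All 6 are protein-coding, with 1730 (Tmem120a) to 13380 (Trps1) exonic bases. The annotation places the antisense gene 2310016G11Rik over the start of Myh14 and a same-strand gene that spans Phyhd1, Gm28035. Further same-strand entries lie over Phyhd1 (Gm28038), Slc39a10 (Gm28151 and Gm37393), Tmem120a (Mir7034) and Trps1 (Mir1907). Of these, Mir1907 stood at 0 to 0.207 CPM in the deposited table, and the others had no row there by symbol. None was analysed further here. How the counting assigned reads shared with them is not stated in the labels.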

How the data were processed

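Per the labels' protocols, strand-specific RNA libraries were made from pooled tissue of 2 mice with the Universal plus mRNA-Seq kit. The build GRCm38 and the tools edgeR 3.26.8 and STAR 2.7.2a are named in the submitters' processing notes. The deposited values are CPM made by the authors, and each library sums to 1000000. The counting tool is not given in the sources used here. Whole reads were recovered from the CPM steps, with 100% of values whole within 0.05 read, 21836878 to 29434125 per library.

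Differences were tested two-sided with limma 3.58.1 in R 4.3.3 (robust moderation with a mean-variance trend) of log2(CPM + 1). A gene was tested where 3 or more of the libraries fitted reached 1 CPM, with Benjamini-Hochberg adjustment at 0.05. Intervals cover 95%. The fit was checked on simulated data for direction and recovery of large changes only, not for power at the differences described here. The genotype comparison in stromal vascular cells used 6 libraries, and the comparison of fractions all 12. Numbers were taken to link the fractions of a pool, from the data alone (correlation of deviations 0.169 to 0.278 across genes in all 6 pairs). The main comparison of fractions did not use this link, so its SE and p treat the 12 libraries as separate.

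The members, the 13 gene lists and the motifs were chosen with earlier results of these data known. Genes named were the members, Kdm5c, direct paralogs, for each list of relatives the 2 with the smallest stromal vascular genotype p and the 2 with the largest fraction difference, and the 2 genes most like each member. Lrg1, Gata6, Zeb2 and marker genes named singly are outside this rule and were named after their values were seen. Alternatives were another pseudocount (0.25), no filter or a mean of 5 CPM, median-of-ratios and quantile scaling, edgeR 4.0.16 and DESeq2 1.42.0 on whole reads, other sets of libraries, a replicate block and each library left out. Promoters came from RefSeq (GRCm38.p6). Python 3.11.15, pandas 2.3.3 and matplotlib 3.10.9 were used.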

Additional observations from a re-analysis of the deposited data

How the results depend on the processing

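In the fraction comparison all 6 members kept direction and call under every alternative run. In mature adipocytes all 6 kept their direction, in the libraries that chose them. Leaving out 1 library could not turn it there, since the genotype labels did not overlap for any member. In the stromal vascular fraction no member was called between genotypes under any alternative, with adjusted p of 0.277 to 1.00 for Phyhd1. Phyhd1, Tmem120a and Slc39a10 kept their direction. Trps1 turned to 0.018 with edgeR and 0.024 with DESeq2. Leaving out 1 library gave -0.45 to 0.52 for Myh14, -0.25 to 0.15 for Trps1 and -0.081 to 0.26 for Itm2a. Myh14 was at -0.45 without replicate 2 and 0.52 without replicate 3 of the label Kdm5c+/-. The causes were not tested. Over all genes, 1 gene was called between genotypes in the stromal vascular fraction, 53 with DESeq2, 4 with all 12 libraries in the fit, and 0 with any 1 library left out (0 to 0). In mature adipocytes 0 were called, 250 with DESeq2, 1 with all 12 libraries, and 0 to 3 with 1 left out, the 3 without replicate 3 of the label Kdm5c+/-.

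Same-numbered libraries of the 2 genotypes correlated at -0.0264 to 0.341 in mature adipocytes and -0.281 to 0.184 in the stromal vascular fraction, and 2 of 6 libraries in each correlated best with their own number, so the numbers do not pair genotypes. With a replicate block 0 genes were called in the stromal vascular fraction. The replicate block of the pools changed no member's call between fractions. With it the adjusted p in limma was larger than in the main fit for every member but Myh14. It was 1.17e-09 for Tmem120a, 9.05e-08 for Itm2a, 3.43e-06 for Trps1 and 0.00378 for Myh14.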
